A study of Mus musculus with 8 samples.

Results

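The serpin protease inhibitors were examined in mouse intestinal organoids cultured with or without RANKL. The 8 genes described are Serpinb1a, Serpinb5, Serpinb6a, Serpinb6b, Serpinb9, Serpinb9b, Serping1 and Serpinh1, out of 54532 genes listed and 68 genes whose symbol starts with Serpin. They were selected on measured values of this same contrast, in which Serpinb1a was much higher with RANKL, so the members' levels and differences between the groups are given as a description without a test. Gene expression was measured by QuantSeq 3′ mRNA-seq in 4 control libraries and 4 libraries of organoids treated with RANKL. The labels name no genotype or strain, and for mouse organoids the methods describe culture in Matrigel in medium with EGF, NOGGIN and R-spondin and mouse lines kept on a C57BL/6J background. The sources used here give no dose or duration of RANKL for these libraries, nor an age or sex of the mice. The replicates are numbered, but nothing states that they came from separate cultures or animals, so p-values measure only the spread between these libraries, which may be technical.

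Serpins are folded around an exposed reactive centre loop that a target protease takes for a substrate. When the protease cuts the loop, the loop inserts into the central sheet of the serpin and the protease is trapped. Members of the B clade lack a classical secretion signal and mostly act inside the cell, where they guard against proteases that leak from granules and lysosomes. Serpinb1a is a mouse form of the leukocyte elastase inhibitor, which blocks elastase, cathepsin G and proteinase 3. Serpinb6a inhibits cathepsin G and trypsin-like enzymes, Serpinb9 inhibits granzyme B, and Serpinb6b and Serpinb9b are their mouse paralogues. Serpinb5 (maspin) and Serpinh1 (HSP47, the collagen chaperone of the endoplasmic reticulum) have the serpin fold but do not inhibit proteases in this way. Serping1 is the secreted C1 inhibitor, which controls the start of complement. RANKL, a TNF-family ligand, acts through its receptor RANK on NF-κB and is known in the gut for driving the formation of M cells.

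The loop region shows how the members differ. In each coding sequence the 30 codons before the serpin signature, a conserved stretch near the end of the protein, were taken from the GRCm38 genome, and in every member they lay in 1 exon. Capitals mark the hinge of the loop where its 7 codons translate to glycine, threonine, glutamate and 4 alanines, the small residues that let the loop move into the sheet. The sequences of the 2 abundant members, of Serpinb9, and of the 2 members that do not act as inhibitors are shown, from 5′ to 3′ on the coding strand.
Serpinb1a (chr13:32842905-32842994, minus strand): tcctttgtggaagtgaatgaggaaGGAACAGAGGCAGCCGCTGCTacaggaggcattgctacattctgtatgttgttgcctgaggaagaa
Serpinb6a (chr13:33918128-33918217, minus strand): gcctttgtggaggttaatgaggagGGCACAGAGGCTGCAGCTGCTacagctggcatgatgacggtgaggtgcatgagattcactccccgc
Serpinb9 (chr13:33015672-33015761, plus strand): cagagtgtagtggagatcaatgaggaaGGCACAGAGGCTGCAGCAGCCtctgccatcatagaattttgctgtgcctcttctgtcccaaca
Serpinb5 (chr1:106881817-106881906, plus strand): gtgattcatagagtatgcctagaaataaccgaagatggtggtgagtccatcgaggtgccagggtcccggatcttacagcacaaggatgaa
Serpinh1 (chr7:99346234-99346323, minus strand): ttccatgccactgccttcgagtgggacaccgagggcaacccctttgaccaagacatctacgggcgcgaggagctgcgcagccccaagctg

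The exact hinge was present in 5 members, Serpinb1a, Serpinb6a, Serpinb6b, Serpinb9 and Serpinb9b, and these are also the 5 members on chromosome 13. Serping1, whose sequence is not shown, had valine in place of the threonine and was otherwise the same at the hinge. The hinge codons of Serpinb1a and Serpinb6a differed at 3 bases without changing a residue. After the hinge the loops diverged, and the number of codons up to the signature was 15 in Serpinb1a and Serpinb6a, 14 in Serpinb9, 13 in Serpinb6b and 17 in Serpinb9b. Over the whole protein, Serpinb1a and Serpinb6a were identical at 49.9% of 373 aligned residues. The closest pairs were Serpinb6a with Serpinb6b at 81.1% and Serpinb9 with Serpinb9b at 76.7%, whereas the 13 pairs that include Serping1 or Serpinh1 were between 24.9% and 32.2% identical. In 3′ sequencing the last bases of the transcript decide which gene gets a read. Of the 451 stretches of 50 bases in the last 500 bases of each member's transcript, 0 were found in a transcript of another gene for any of the 8 members. Reads of 50 bases that match these ends exactly could therefore be told apart from those of their paralogues. Shorter, trimmed reads and other transcript ends were not examined.

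Total counts per library ran from 583663 to 7807298 and were 16214577 over the control group against 5763309 over the RANKL group. The shallowest control and RANKL libraries, replicate 4 and replicate 1, held 583663 and 613135 counts. Levels are given as CPM, counts per 1000000 counts after TMM scaling between libraries. Where a gene had no count, as many as 3 remain possible from counting error alone, or between 0.382 and 5.16 CPM depending on the library. Within a group, Spearman correlations between libraries over genes were between 0.958 and 0.986, and between groups they were between 0.911 and 0.949. All 18 listed marker genes of the intestinal epithelium, the tissue that the paper names, had counts. Their summed level was 9042 to 10160 CPM in control and 10250 to 11000 CPM with RANKL. Since a transcript is read at its 3′ end only, levels were not divided by gene length.

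Serpinb1a (GRCm38 chr13:32842092-32851185, minus strand) was the most abundant serpin in the RANKL libraries. Its level was 224, 215, 258 and 249 CPM in control replicates 1 to 4 and 1377, 1513, 1553 and 1591 CPM in RANKL replicates 1 to 4. The groups were far apart, with the lowest RANKL library above 5 times the highest control library, and the spread within a group was small, 236.6 ± 20.1 CPM in control and 1508 ± 93 CPM with RANKL (mean ± SD, n = 4 each). The fitted log2 fold change was 2.68 (SE 0.10), or 6.42-fold. By level Serpinb1a was 825th of the 9971 genes that passed the filter on low counts in control and 48th with RANKL. The difference of the group means was 1272 CPM, the 5th largest gain of all 9971 genes on this scale.

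Serpinb6a (GRCm38 chr13:33917918-34002794, minus strand) lies in the same gene cluster and stood close to Serpinb1a in control organoids. It measured 214, 240, 224 and 182 CPM in control replicates 1 to 4 and 576, 624, 585 and 673 CPM in RANKL replicates 1 to 4. Again all RANKL libraries were above all control libraries, and the means were 215.2 ± 24.4 and 614.5 ± 44.0 CPM (SD, n = 4 each). The log2 fold change of Serpinb6a was 1.49 (SE 0.10), or 2.82-fold. The gain in the mean was 399.3 CPM, the 24th largest.

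**Figure D1:**
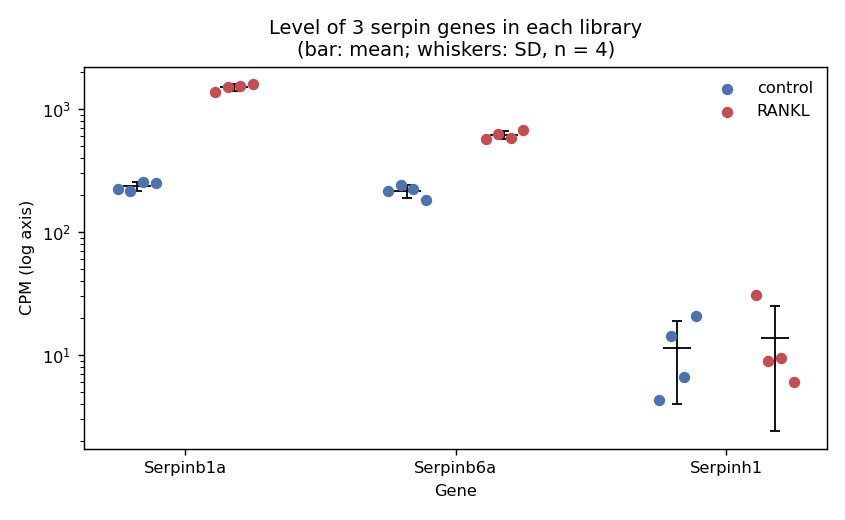
CPM (log axis) of the 3 members that passed the filter, in each of 4 control and 4 RANKL libraries, with the mean and SD as bar and whiskers. All RANKL points of Serpinb1a and Serpinb6a lie above all control points, whereas the points of Serpinh1 are mixed between 4.33 and 30.7 CPM.

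The balance between both abundant serpins differed between the groups, which restates the larger fold change of Serpinb1a. Since the members were chosen for the rise of that gene, the balance is a description and no separate result. Of the counts of Serpinb1a and Serpinb6a together, Serpinb1a held 51.2%, 47.3%, 53.4% and 57.8% in the control libraries and 70.5%, 70.8%, 72.6% and 70.3% in the RANKL libraries. The group means were 52.4% ± 4.4 and 71.1% ± 1.1 (SD, n = 4 each). The widest 95% Wilson interval, which covers counting error only, was that of control replicate 4, 51.6% to 63.7%. The intervals of control replicates 2 (44.9% to 49.7%) and 3 (51.2% to 55.7%) did not overlap, so libraries of one group differed by more than counting error. This share is a ratio within a library and does not depend on the scaling between libraries. All serpins together took 0.0467% ± 0.0014 of the counts of a control library and 0.217% ± 0.013 of those of a RANKL library (SD, n = 4 each). In organoid pools, more cells that express a gene and more RNA per cell cannot be told apart.

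**Figure D2:**
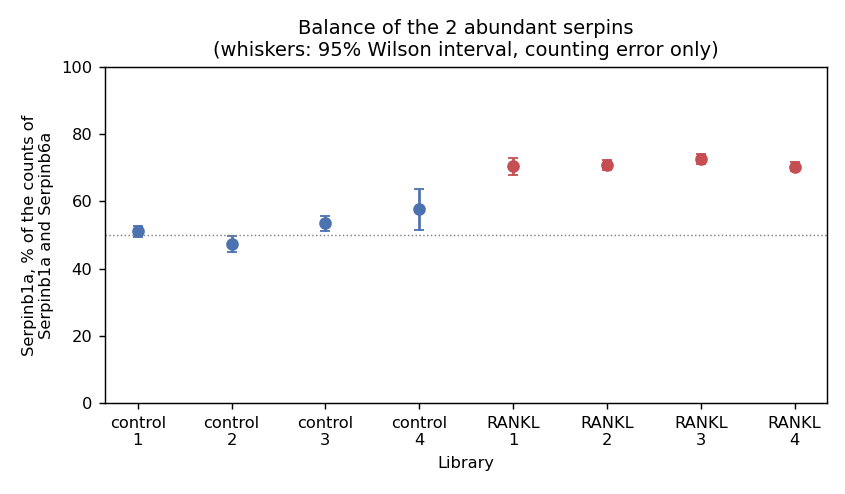
Share of Serpinb1a in the summed counts of Serpinb1a and Serpinb6a (%) in each library, with 95% Wilson intervals for counting error. The control libraries lie between 47.3% and 57.8% and the RANKL libraries between 70.3% and 72.6%.

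Serpinh1 (GRCm38 chr7:99345376-99353239, minus strand), the collagen chaperone, was expressed at a low level without a stable difference. It had 34, 53, 26 and 12 counts in control replicates 1 to 4 and 19, 13, 18 and 11 counts in RANKL replicates 1 to 4. These correspond to 4.33, 14.2, 6.59 and 20.6 CPM against 30.7, 8.95, 9.39 and 6.04 CPM, and the groups overlap over most of their range. The highest value of each group was that of its shallowest library, control replicate 4 and RANKL replicate 1. The log2 fold change was 0.34 (SE 0.41), and its 95% range of 0.724-fold to 2.20-fold covered differences in both directions. In a fit with depth (the log2 total count) as a further term it was -0.65 (SE 0.37), and it was -0.07 without control replicate 1 and -0.12 without RANKL replicate 1.

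Across the 8 members, 3 passed the filter on low counts, and 2 of these 3, Serpinb1a and Serpinb6a, were past the adjusted p threshold of 0.05 in edgeR's quasi-likelihood fit, both higher with RANKL. In the same fit 2587 of 9971 genes, or 25.9%, were past the threshold, 1355 of them higher (13.6%) and 1232 lower. Since the contrast chose the members, nothing is read from this count.

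The 5 other members were near or below the detection limit, with 41 counts in all. Serpinb9b had 11, 7, 1 and 0 counts in control replicates 1 to 4 and 2, 2, 2 and 1 counts in RANKL replicates 1 to 4. Relative to the group totals this is a ratio of 1.04 (95% counting interval 0.368 to 2.58), which covers differences of more than 2-fold in either direction. Serpinb9, the granzyme B inhibitor, had 2, 0, 0 and 0 counts in the control libraries and 1, 1, 2 and 4 counts in the RANKL libraries. All 4 RANKL libraries of Serpinb9 were thus above the control libraries in CPM, but on 10 counts in all, and each RANKL library except replicate 4 lay below the limit of 3 counts. The ratio relative to the group totals was 11.25 with a counting interval of 2.25 to 109. Such complete separation was seen for 3 members, Serpinb1a, Serpinb6a and Serpinb9. It was seen upwards in 13.1% of the 9971 tested genes, which do not include Serpinb9, as that gene did not pass the filter.

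Serpinb5 (maspin) had 2 counts in either group, which gives no usable ratio. Serpinb6b had 1 count, in control replicate 2, although its protein is 81.1% identical to that of the abundant Serpinb6a. Serping1, the C1 inhibitor, had 0 counts in all 8 libraries, so that at most 0.137 CPM remain possible over the 21977886 counts of the series. At this depth, no difference between the groups was detectable for any of these 3 genes.

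The narrow range of serpins with counts extended beyond the 8 members. Of the 68 serpin genes in the annotation, 41 had 0 counts in every library, and the 27 others held 20225 counts. Serpinb1a and Serpinb6a held 98.0% of these. The 60 serpin genes outside the 8 had 171 counts in all, 123 in control and 48 with RANKL, and the largest was Serpinc1 (antithrombin) with 48. The end of Serpinc1 is shared in full with transcripts of Zbtb37 in a search of both strands. The search does not tell the strands apart, so whether the counts of Serpinc1, made by strand, are affected is not known. Serpinf2 (the plasmin inhibitor) had 28 counts and Serpini1 (neuroserpin) had 27. The A clade, which holds the liver-secreted antitrypsin genes, had 10 of 29 genes with a count and 49 counts, 30 in control and 19 with RANKL. All group counts here are raw, and the control total was 2.81 times the RANKL total. Of 62 serpin genes whose ends were examined, 22 shared a stretch of 50 bases with another gene on either strand. A count of 0 in such a gene is therefore uncertain.

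None of the 60 passed the filter, so 0 of them could be called in the fit of edgeR. Without the filter, 20 entered the edgeR fit and 1 had an unadjusted p below 0.05. This was Serpina1b, an antitrypsin gene, with 2 counts in control and 9 counts with RANKL, a log2 fold change of 3.22 (SE 1.10) and an adjusted p of 0.034. In Serpina1b 29.5% of the 50-base stretches of the transcript end are shared with its near-identical neighbours, so this value is uncertain.

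**Figure D3:**
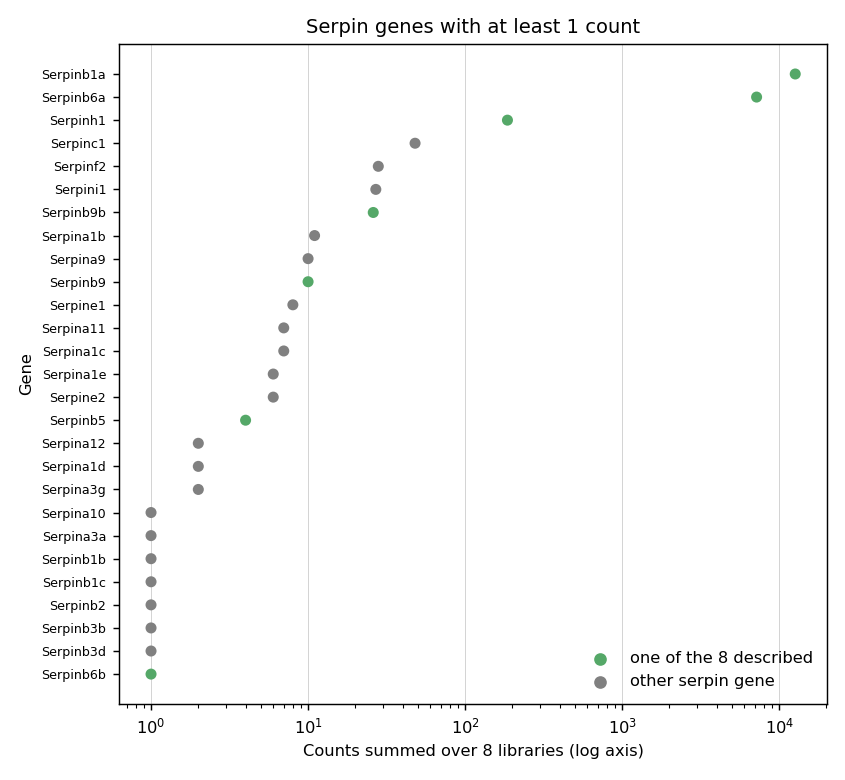
Counts summed over 8 libraries (log axis) for the 27 serpin genes with at least 1 count, with the described members in green and the other serpins in grey. Serpinb1a with 12649 counts and Serpinb6a with 7178 counts stand far above Serpinh1 with 186, and no gene outside the 8 exceeds 48.

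The paralogues of the abundant genes had almost no counts. The 3 paralogues of Serpinb1a, Serpinb1b, Serpinb1c and a pseudogene, had 2 counts in all against 12649 of Serpinb1a itself. The 4 paralogues of Serpinb6a had 1 count in all against 7178. For Serpinb9 the order was the other way round, and its 6 paralogues had 26 counts, all of them in Serpinb9b, against 10 of Serpinb9. The ends of Serpinb9d, Serpinb9e, Serpinb9f and Serpinb9g share 26.6% to 100% of their 50-base stretches with other genes. Reads there may not be assigned to a single gene, so the 0 counts of these paralogues are uncertain.

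Serpinb1a and Serpinb6a mark the outer ends of a cluster that spans 1161 kb of chromosome 13 (GRCm38 chr13:32842092-34002794) and holds 16 serpin genes. The 14 serpin genes other than these 2 had 39 counts together, and 9 of the 16 had 0. In the span and 200 kb on either side, 7 genes that are not serpins were tested, and 1 of them rose. This is near the share of all genes tested that rose, 13.6%. Tubb2b, a beta-tubulin gene 1279 kb from the start of Serpinb1a, rose from 9.51 ± 2.63 to 27.8 ± 5.2 CPM (SD, n = 4 each), with a log2 fold change of 1.48 (SE 0.21) and an adjusted p of 3e-06 in edgeR. The nearest tested gene to Serpinb1a, Wrnip1, measured 21.8 ± 4.1 and 28.7 ± 5.8 CPM and did not pass (log2 fold change 0.36, SE 0.18, adjusted p = 0.16 in edgeR), though it did without control replicate 1 (0.54, adjusted p = 0.040). Nqo2, a quinone reductase gene that lies inside the span of Serpinb6a on the opposite strand, measured 70.1 ± 3.5 and 83.6 ± 5.2 CPM and also did not pass (0.27, SE 0.12, adjusted p = 0.091 in edgeR). The start of Ripk1, a kinase gene of TNF receptor signalling, overlaps that of Serpinb6a head to head, and its level was 44.5 ± 5.9 and 43.3 ± 7.6 CPM (0.06, SE 0.15, adjusted p = 0.81 in edgeR). The authors counted reads by strand, so overlaps on opposite strands were not pooled.

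**Figure D4:**
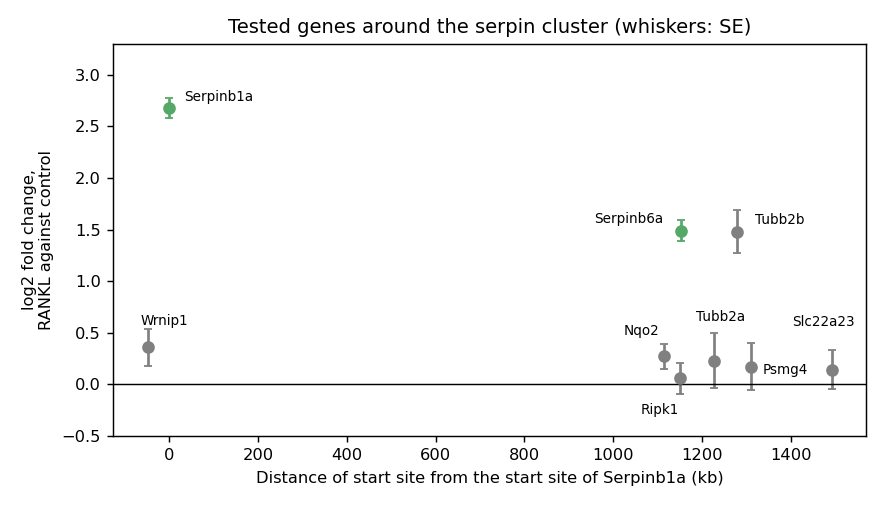
Log2 fold change with SE of each tested gene in and around the serpin cluster, against the distance of its start site from that of Serpinb1a (kb). Serpinb1a at 2.68, Serpinb6a at 1.49 and Tubb2b at 1.48 stand apart from 6 neighbours between 0.06 and 0.36.

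The genes whose log2 CPM followed Serpinb1a most closely over the 8 libraries, among 9930 tested genes with a mean of at least 5 CPM, were Arhgef40, Treml4, Cyba, Cnp and Inf2, with Pearson coefficients from 0.997 to 0.999. All points share the same 8 libraries and the coefficients are dominated by the difference between the groups, so 247 genes exceeded 0.95, and Serpinb6a reached 0.984. Cyba, a subunit of the NADPH oxidase, had a mean of 82.8 CPM in control and 588 CPM with RANKL. Treml4 had 0 CPM in all control libraries and a mean of 12.1 CPM with RANKL. Within the groups, as deviations from the group means, a different 5 genes led, Fam174b, Smarca2, Cwf19l2, Trim7 and Lppos, with coefficients from 0.957 to 0.972. Serpinb6a had a coefficient of -0.136 with Serpinb1a within the groups.

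Granule, pancreatic and lysosomal proteases, some of them known targets of clade B serpins, were in large part not detected. Of 25 matched granule, pancreatic and lysosomal proteases, 14 had 0 counts in every library, among them elastase (Elane) and granzyme B (Gzmb), and 6 were tested. Of these, Ctsh, the lysosomal cathepsin H, rose from 61.2 ± 5.1 to 188.9 ± 9.4 CPM (SD, n = 4 each), with a log2 fold change of 1.62 (SE 0.11) and an adjusted p of 8.5e-13 in edgeR. None of the 6 fell. Cathepsin B, Ctsb, measured 137.0 ± 10.7 and 128.1 ± 12.5 CPM (log2 fold change -0.10, SE 0.11, adjusted p = 0.54 in edgeR). Cathepsin S, Ctss, measured 22.8 ± 4.7 and 34.2 ± 4.4 CPM and was just short of the threshold (0.45, SE 0.17, adjusted p = 0.051 in edgeR), which it passed without control replicate 1 (0.59, adjusted p = 0.019). The median log2 fold change of the 6 was 0.12, against 0.00 over all 9971 genes tested, of which 13.6% rose past the threshold.

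Serine proteases anchored in the epithelial membrane included 5 tested genes, of which 2 fell and 0 rose. Over all genes tested, 25.9% passed the threshold in either direction. St14 (matriptase) fell from 192 ± 10 to 149 ± 14 CPM (log2 fold change -0.38, SE 0.11, adjusted p = 0.0071 in edgeR), and Prss8 (prostasin), a partner of matriptase, fell from 98.0 ± 14.7 to 76.0 ± 8.7 CPM (-0.39, SE 0.12, adjusted p = 0.022 in edgeR). The call of Prss8 was lost without control replicate 3 (adjusted p = 0.055), without RANKL replicate 1 (0.057) and without RANKL replicate 2 (0.098). The median of the 5 genes was -0.38. Of 3 tested genes of plasminogen activation, S100a10, which binds plasminogen activator at the cell surface together with annexin A2, rose from 96.9 ± 14.0 to 150 ± 11 CPM (0.62, SE 0.12, adjusted p = 0.00014 in edgeR). Anxa2 itself measured 1291 ± 194 and 1198 ± 159 CPM (-0.11, SE 0.11, adjusted p = 0.50 in edgeR), and the median of the 3 was -0.11.

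Of 9 tested genes listed as inhibitors of other families, 5 rose and 0 fell, where 13.6% of all genes tested rose. Their median log2 fold change was 0.48, against 0.00 over all genes tested. Itih5 was listed by the name of its family, as a heavy chain of inter-alpha-trypsin inhibitor, and whether it inhibits a protease was not examined. It rose from 2.18 ± 1.25 to 50.3 ± 9.1 CPM (SD, n = 4 each), with a log2 fold change of 4.88 (SE 0.28). Cst6 and Cstb, inhibitors of cysteine cathepsins, rose by 1.84 (SE 0.32) and 0.61 (SE 0.16) on the log2 scale. Spint1 and Spint2, the Kunitz inhibitors of matriptase and prostasin, rose from 199 ± 15 to 279 ± 26 CPM and from 96.8 ± 37.1 to 180 ± 20 CPM. Their log2 fold changes were 0.48 (SE 0.10) and 0.90 (SE 0.17). The adjusted p in edgeR was at most 0.0051 for these 5 genes. The most abundant inhibitor of the list, Spink1, an inhibitor of trypsin, measured 1429 ± 48 and 1468 ± 175 CPM (0.04, SE 0.10, adjusted p = 0.80 in edgeR). In the RANKL libraries Serpinb1a, at 1508 ± 93 CPM, was thus at a level within the spread of Spink1, whereas in control libraries Spink1 was far above it.

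**Figure D5:**
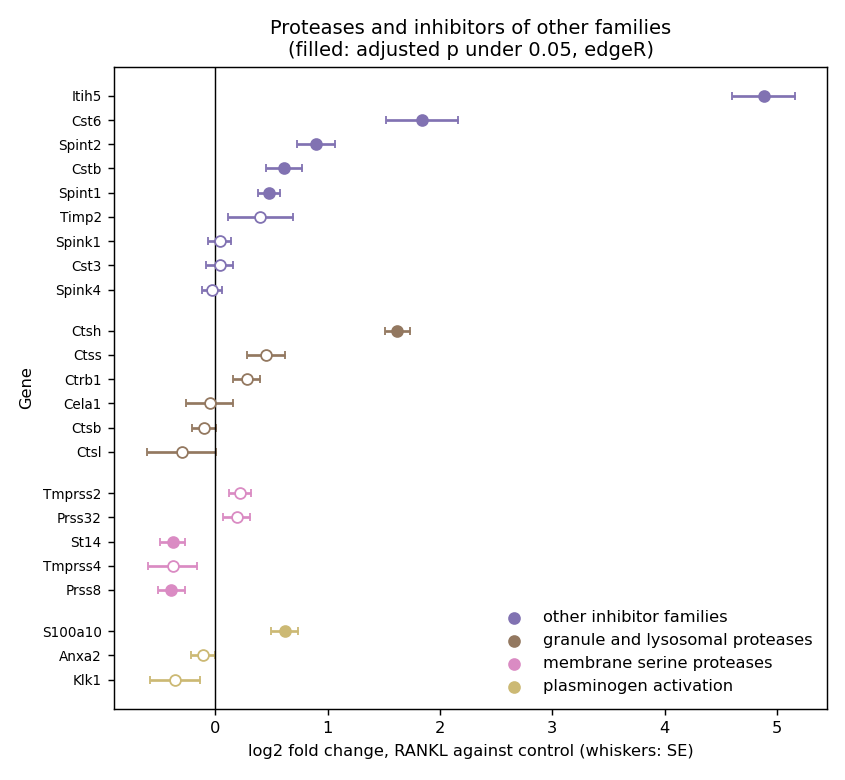
Log2 fold change with SE for tested proteases and inhibitors of other families, in 4 colours by list, with filled points where the adjusted p in edgeR was under 0.05. Itih5 at 4.88 and Cst6 at 1.84 lead the genes listed as inhibitors, Ctsh at 1.62 the proteases, and St14 and Prss8 lie below 0.

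Genes from the known settings of the other 2 serpins were examined in the same way. Serping1 acts on the proteases that start complement, and of 15 listed genes 4 had 0 counts and 2 were tested. These 2, C3 and Mbl2, do not encode proteases, so no target protease of Serping1 was tested. Of the 2 tested genes 1 rose, where 13.6% of all genes tested rose. C3, the central complement component, was at 1.59 ± 0.90 CPM in control and rose to 199 ± 17 CPM (6.72 on the log2 scale, SE 0.20, adjusted p = 1.1e-21 in edgeR). Without control replicate 1, which held 22 counts of C3 against 1 to 4 in the other control libraries, its log2 fold change was 7.58. Serping1 itself, as given above, had no count. The other, Mbl2, measured 9.60 ± 4.03 and 13.6 ± 2.8 CPM (0.66, SE 0.27, adjusted p = 0.068 in edgeR), and it passed without control replicate 4 (0.76, adjusted p = 0.033). Serpinh1 works with the enzymes that fold and modify procollagen. Of 8 tested 1 rose, where 13.6% of all genes tested rose, and 2 passed without control replicate 1 or without RANKL replicate 3. With all libraries this was Colgalt1, a collagen galactosyltransferase, with 116 ± 3 and 176 ± 12 CPM (0.60, SE 0.10, adjusted p = 4.4e-05 in edgeR). Of 18 collagen genes 1 was tested, Col7a1, with 5.64 ± 4.38 and 6.29 ± 0.74 CPM (-0.13, SE 0.36, adjusted p = 0.83 in edgeR). Without control replicate 3 its log2 fold change was 0.19. A collagen gene passed in the fits without control replicate 4 and without RANKL replicate 1, 1 in each, and 2 passed without the filter on low counts.

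Serpinh1 is also a heat shock gene. Of 16 tested genes of the heat shock response, 3 rose and 2 fell, with a median log2 fold change of 0.04. Over all genes tested, 25.9% passed the threshold in either direction. Chordc1, an HSP90 co-chaperone, rose by 0.65 (SE 0.11), Dnaja1 by 0.45 (SE 0.14) and Hsph1 by 0.39 (SE 0.12), whereas Hspa8 and Hsp90ab1, abundant constitutive chaperones, fell by 0.33 (SE 0.10) and 0.26 (SE 0.09) on the log2 scale. The adjusted p in edgeR was 3.5e-05 for Chordc1 and between 0.013 and 0.040 for the 4 others. Each of those 4 lost its call in at least 1 fit with a library left out, and Hsp90ab1 in 5 of 8. The count of genes past the threshold fell from 5 to 3 without RANKL replicate 2 and to 1 without RANKL replicate 4.

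Some serpins of this cluster are known to respond to interferon and NF-κB, and both gene lists were counted. Of 11 tested NF-κB feedback genes, 10 rose, with a median log2 fold change of 2.19. Nfkb2 rose by 3.48 (SE 0.18), Relb by 3.32 (SE 0.11), Nfkbie by 3.31 (SE 0.39), Nfkbia, the inhibitor IκBα, by 3.24 (SE 0.12) and Tnfaip3, a ubiquitin-editing enzyme, by 3.05 (SE 0.34), each with an adjusted p of at most 8.8e-08 in edgeR. Control means of Nfkbie and Tnfaip3 were low, 0.80 and 1.35 CPM against 260 CPM of Nfkbia, and both had 0 counts in control replicate 4. The fold change of Serpinb1a lies above this median and that of Serpinb6a below it. Of 10 tested interferon-stimulated genes 2 rose, where 13.6% of all genes tested rose, and the median was 0.34. This count was 4 without control replicate 4 and 1 without RANKL replicate 2 or 3. Irf1, which is also a target of NF-κB, rose from 44.9 ± 1.5 to 138 ± 8 CPM (1.59, SE 0.11, adjusted p = 2.2e-12 in edgeR), and Irf7 rose by 0.93 (SE 0.32, adjusted p = 0.028 in edgeR) at 3.63 ± 1.33 and 7.83 ± 2.26 CPM. The call of Irf7 was lost without control replicate 3, without RANKL replicate 2 and without RANKL replicate 3, where its adjusted p reached 0.18.

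Promoters were read from the RefSeq table for GRCm38.p6, from 250 bases before to 50 bases after the start, and 6 of the 8 members had one. Serpinb1a and Serping1 had no entry. The interferon-stimulated response element (searched as GAAANNGAA on both strands) matched before the start of 2 members, and it is found in 8.56% of the 32851 promoters of the table. It is shown in capitals, as its reverse complement, because Serpinb6a is one of the abundant members and Serpinb9 had 10 counts in all.
Serpinb6a (first base of the match 83 bases before the start): ttccgcgcttTTCGATTTCcgggaacgtt
Serpinb9 (first base of the match 45 bases before the start): tcctgctactTTCACTTTCtctaaggacc

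A second promoter of Serpinb6a in the table held the same element 4 bases after its start.
The NF-κB motif, present in 4.51% of promoters, matched only in Serpinh1 among the 6, 110 bases before the start, and the heat shock element (GAANNTTC, 7.86% of promoters) matched only in Serpinb5, 207 bases before the start. AP-1 (TGANTCA, 7.81%) matched in Serpinb5, and the Spi-B and PU.1 motif (GAGGAAGT, 3.20%) in none of the 6. A match is a description of letters in a window of DNA and was not tied to binding.

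Leukocytes are a known source of Serpinb1a and Serpinb9. Of 17 leukocyte markers, 9 had 0 counts in all libraries, including Cd3e, Itgax, Tyrobp and Mpo. Their summed level was 5.16 to 8.87 CPM in control and 4.13 to 16.1 CPM with RANKL, with most counts in Csf1r (93 in control, 30 with RANKL) and Itgam (9 and 10). The part of these markers in the level of Serpinb1a was not tested. For fibroblasts, a known source of Serpinh1 and Serping1, 9 of 10 markers had counts, Dcn had 0, and the summed level was 16.2 to 49.9 CPM in control and 32.3 to 46.8 CPM with RANKL. Vim had 228 counts in control and 77 with RANKL, and Pdgfrb had 51 and 113. The part of these markers in the level of Serpinh1 was not tested. For endothelial cells, 2 of 5 markers, Cdh5 and Kdr, were at 0, and the summed level was at most 3.44 CPM in any library, led by Pecam1 with 20 and 4 counts and Vwf with 8 and 6. The counts of single markers in this paragraph are raw and cannot be compared directly between the groups. The control total was 2.81 times the RANKL total.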

How the data were processed

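RNA of control and RANKL-treated organoids, 4 libraries each, was sequenced as single reads with the QuantSeq forward kit. The authors trimmed the reads, aligned the reads to the mouse genome (GRCm38) and deposited raw counts per gene, whole numbers without normalization. Molecular identifiers are not mentioned, so PCR copies count as reads. Groups came from the sample titles, and 0 columns of other samples were in the table. Total counts were 583663 to 7807298 per library.

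Symbols and coordinates were taken from GENCODE M21 by identifier, for 54495 of 54532 genes, and the others held 0.00675% of the counts. RANKL was compared with control by the quasi-likelihood test of edgeR 4.0.16 (R 4.3.3) after its low-count filter, with TMM factors on totals over all genes and Benjamini-Hochberg adjustment over 9971 genes. Standard errors were obtained by dividing a log2 fold change by the square root of F. Ranges of folds are 95% normal intervals. For serpins under the filter, ratios of counts relative to group totals have exact conditional intervals. Alternatives were DESeq2 size factors, library totals alone, DESeq2 1.42.0, limma-voom (limma 3.58.1), other filters and thresholds, a replicate block, a depth covariate and each library left out. The steps were tested on simulated data. Proteins were translated from the annotation and aligned pairwise with Biopython 1.88 (BLOSUM62, gap opening 11, extension 1) in Python 3.11.15 with pandas 2.3.3.

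The 8 members and all gene lists were chosen with earlier results of these data known. Named are the 8 members, the paralogues of Serpinb1a, Serpinb6a and Serpinb9, other serpins past the filter, of each list up to 5 genes past the threshold with the largest change and 5 CPM or more on average, up to 3 past it against the list's median, 2 markers of each other cell type with the most counts, and the 5 genes most like Serpinb1a in either way. The low serpins, the genes near the cluster and list genes that did not pass were named after their values were seen. The study's other experiments were not analysed here.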

Additional observations from a re-analysis of the deposited data

Results flagged for a closer look

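Of 72 groups of 4 libraries examined over 36 named genes, 4 held a library that stood apart from the other 3 by Dixon's criterion, where chance alone gives about 1 in 20 groups, or 3.6. Serpinh1 in RANKL replicate 1, the shallowest of its group, measured 30.7 CPM and the next library 9.39 CPM. Spint2 in RANKL replicate 3 was the lowest of its group at 149.7 CPM, with the next at 187 CPM. Nfkbia in control replicate 3 was the lowest at 189.1 CPM, with the next at 275 CPM. Ripk1 in control replicate 4, the shallowest of its group, was the highest at 53.3 CPM, with the next at 42.6 CPM.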

How the results depend on the processing

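The log2 fold changes of Serpinb1a and Serpinb6a moved by less than the spread between replicates in all 16 alternative fits, and with a library left out ranged from 2.64 to 2.74 and from 1.45 to 1.55. That of Serpinh1 was -0.65 with the depth covariate and ranged from -0.12 to 0.74 with a library left out. Past the threshold were 2587 genes as reported, 1636 at an adjusted p of 0.01, 577 at a fold of at least 2, and 1853 to 2601 with a library left out. Of the listed genes beside the serpins, 28 passed as reported and 14 at a fold of at least 2. Without a filter, 1 serpin outside the 8 passed, against 0. As deviations from the group means, same-numbered control and RANKL libraries correlated between -0.033 and 0.101, and other pairings at most at 0.086. Whether the replicate numbers pair the libraries is not settled by these values. The fit with the replicate block called 2610 genes, 2 of the 8 members and 0 other serpins. Of the single list genes, Prss8, Cstb, Dnaja1, Hsph1, Hspa8, Hsp90ab1 and Irf7 lost their call in 1 or more alternatives, and no list gene named as past the threshold turned its direction. Wrnip1, Ctss and Mbl2, which did not pass as reported, passed in 1, 5 and 2 alternatives. Depth limits the low serpins: 3 counts are 0.185 CPM over the control and 0.521 CPM over the RANKL group.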
